A study of Rattus norvegicus with 12 samples.

Results

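Mucins and goblet cell products were followed in rat colon through 10 listed genes: Muc2, Fcgbp, Zg16, Tff3, Spink4, Agr2, Spdef, Muc1, Muc13 and Muc4. Members were taken by name, as every non-control probe whose gene name in the array files equals one of these, and 12 of 30367 probes qualified, for 9 of the 10 genes. No probe carried the name Muc4. Colon was collected at postnatal day 60 from male Wistar rats of 200 to 250 g, with 1 one-colour array per rat and 4 rats per group. Group C was normally handled and received placebo, that is, 100 µL of saline by daily gavage. Group M underwent neonatal maternal separation (NMS), 180 min each day from postnatal day 2 to day 14, and received placebo. Group D underwent the same NMS and was given the probiotic mixture VSL#3 by gavage from day 3 to day 60. Rats of all 3 groups had undergone colorectal distension (CRD), so no group shows the undisturbed colon, and no group received VSL#3 without NMS. The comparison of Group M with Group C asks what accompanied NMS, and that of Group D with Group M what accompanied VSL#3 in separated rats.

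Goblet cells are the secretory cells of the colonic epithelium that fill and release granules of mucus. Muc2 is the gel-forming mucin of colonic mucus, a very large glycoprotein joined into polymers by disulfide bonds in the endoplasmic reticulum and the Golgi apparatus. Fcgbp and Zg16 are released into the same gel, trefoil peptides such as Tff3 are secreted with it, Agr2 is a protein disulfide isomerase that mucin folding requires, and the transcription factor Spdef drives goblet cell maturation. Muc1, Muc4 and Muc13 are transmembrane mucins of the apical surface, and are made by absorptive cells too.

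The tissue carried the markers of full-thickness colon. Epcam and Cdh1 of the epithelium, Vil1 of the brush border, Car1 and Aqp8 of colonocytes, Myh11 of smooth muscle and Ptprc of leukocytes were well above background on all 12 arrays, at which 75.5% to 77.5% of spots were well above background. Values are log2 of the processed signal over the 75th percentile of the same array, so that 0 is the 75th percentile and 1 unit is a 2-fold difference. The study's methods describe 11 arrays, without D12 of Group D and without a reason, so the tests use 4 rats of Group C, 4 of Group M and D9 to D11 of Group D, and the value of D12 is given apart. Groups C and M were hybridized on one slide and all of Group D on another that was scanned later, so that slide and group cannot be told apart in any comparison with Group D. In whole tissue, fewer cells of a type and less RNA per cell cannot be told apart either. Nothing in the labels says more of the 4 rats of a group than that they are separate samples.

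The sequences of the probes that carry the results are shown first, because each value below is the binding of labelled colon RNA to 1 stretch of 60 bases of the transcript. Muc2 was read at 3 such stretches.
Muc2, probe A_64_P018633: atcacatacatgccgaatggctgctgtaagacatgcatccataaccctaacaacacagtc
Muc2, probe A_64_P113287: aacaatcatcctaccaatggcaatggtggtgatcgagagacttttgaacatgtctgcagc
Muc2, probe A_64_P200747: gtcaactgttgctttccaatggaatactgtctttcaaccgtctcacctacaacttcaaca
Fcgbp, probe A_64_P388465: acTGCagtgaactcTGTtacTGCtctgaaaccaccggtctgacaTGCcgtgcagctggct
Spink4, probe A_64_P091953: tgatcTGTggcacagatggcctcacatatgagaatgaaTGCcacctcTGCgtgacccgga
Zg16, probe A_44_P536086: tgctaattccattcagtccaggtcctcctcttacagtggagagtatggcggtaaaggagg
Muc1, probe A_44_P229118: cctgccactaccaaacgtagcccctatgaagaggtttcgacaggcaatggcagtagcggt
Muc13, probe A_44_P440556: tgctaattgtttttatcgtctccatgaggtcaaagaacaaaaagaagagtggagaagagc
All are written 5′ to 3′ as in the array files. Capitals mark the codons TGC and TGT, which encode cysteine, and were set only where exactly 1 of the 3 forward reading frames was free of stop codons, which of the 8 shown held for Fcgbp with 4 such codons and for Spink4 with 3.

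In the rn4 build, the positions in the files place the Fcgbp probe on the plus strand of chr1:83211975-83212034 and the Spink4 probe on the plus strand of chr5:58323932-58323991. The Muc1 probe lies on the plus strand of chr2:181402014-181403312 and the Zg16 probe on the minus strand of chr1:186302262-186302479. These last spans of 1299 and 218 bases are longer than the 60 bases of the probe. Whether both probes join exonic sequence across spliced-out sequence was not looked up. The Agr2 probe, at chr6:54709562-54710914 on the plus strand, also spans more than its own length, at 1353 bases. The Tff3 probe is on the minus strand of chr20:9471911-9471970. The files give no position for the Muc2 and Muc13 probes.

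No member changed past the adjusted threshold. Of the 12 member probes, 0 had an adjusted p of at most 0.05 (limma, Benjamini-Hochberg over all probes) in Group M vs Group C, where 0.204% of all probes did, 0 in Group D vs Group M, where 0.171% did, and 0 in Group D vs Group C, where 0.00659% did. Taking an unadjusted p of at most 0.05, the call numbers were 3 of 12 in Group M vs Group C (Muc1 and Muc13 lower, Spink4 higher), against 22.7% of all probes, 2 of 12 in Group D vs Group M (Muc13 higher, Spink4 lower), against 21.6%, and 0 of 12 in Group D vs Group C, against 5.97%. The members' counts were therefore near those of the whole array. The test of the study's methods (a Tukey test after variance analysis, with means that differ at least 2-fold) also selected 0 member probes in each comparison, against 2.31%, 2.66% and 0.369% of all probes. Over the 9 genes the median log2 difference was 0.08 for Group M vs Group C, 0.14 for Group D vs Group M and -0.02 for Group D vs Group C, beside -0.01, 0.01 and -0.01 over all probes. The first and second comparisons share the rats of Group M, and so opposite signs in them are not independent.

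**Figure D1:**
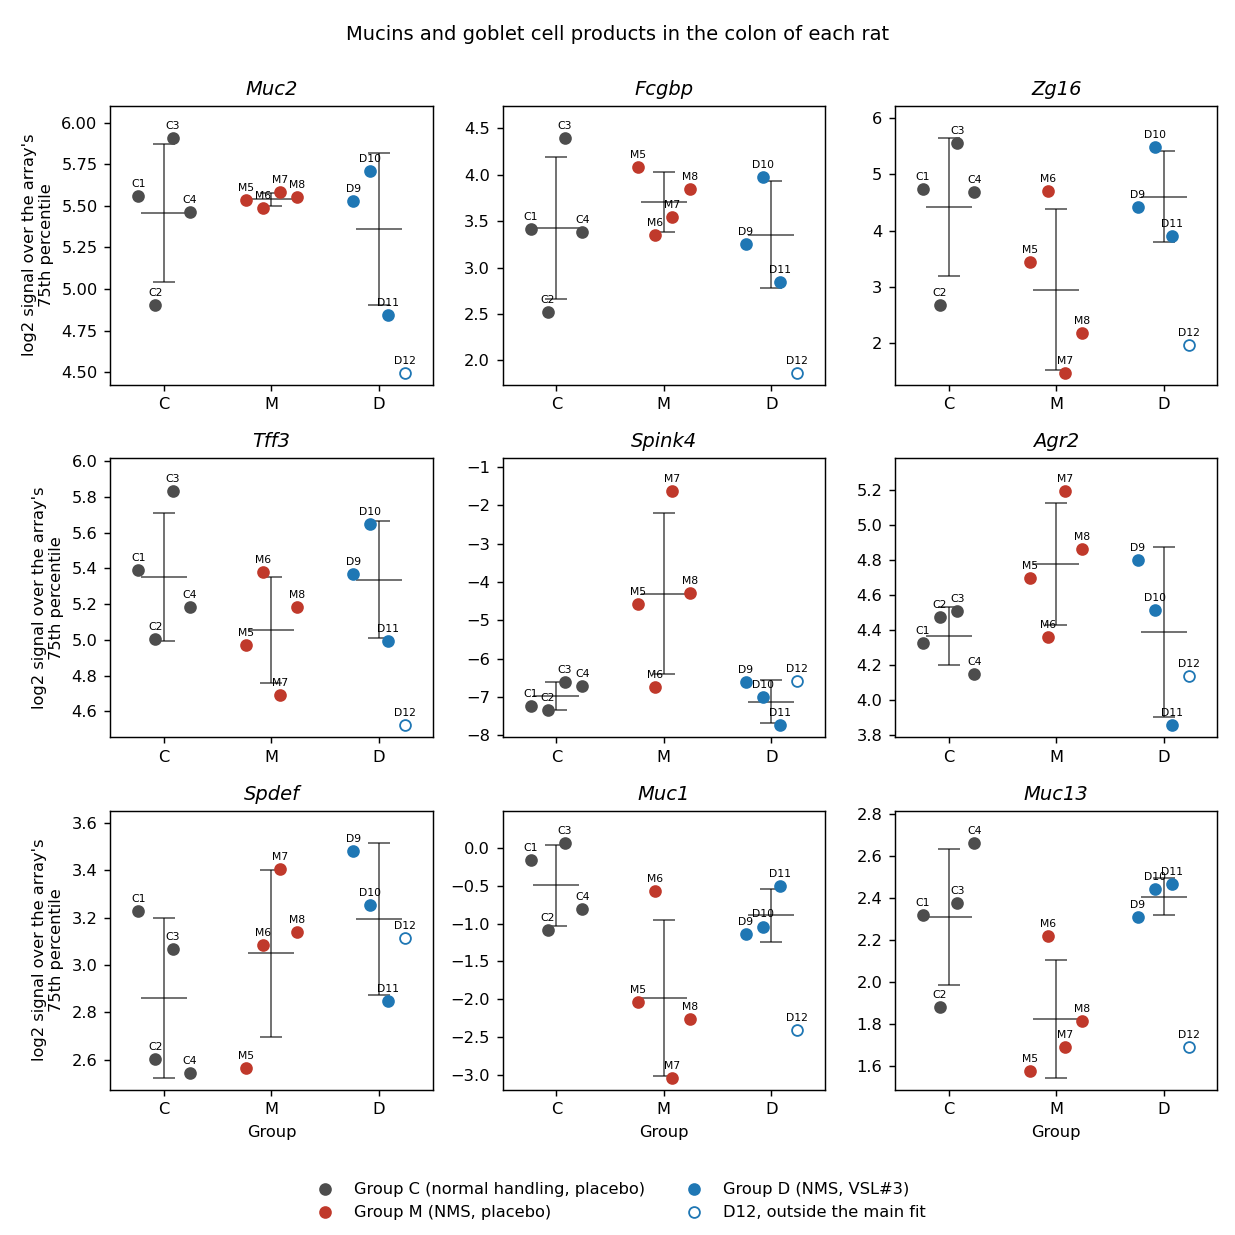
Log2 signal over the array's 75th percentile (vertical axis) of each of the 9 measured genes in every rat, by group, with the probe of highest mean signal per gene. Bars are the mean and SD of the rats in the main fit and the open circle is D12. M6 lies among the Group C rats for Zg16, Muc1, Muc13 and Spink4, while C2 and D12 lie low for Zg16.

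Muc2, the gel-forming mucin itself, did not differ between the groups beyond its spread between rats. Its log2 signal was 5.56, 4.91, 5.91 and 5.47 in C1 to C4, and 5.53, 5.49, 5.58 and 5.55 in M5 to M8. In Group D it was 5.53, 5.71 and 4.84 in D9 to D11, and 4.50, the lowest of all, in D12. The 4 rats of Group M thus lay inside the range of Group C. The log2 difference was 0.08 (SE 0.23, 95% interval -0.42 to 0.58, limma adjusted p = 0.885) for Group M vs Group C. It was -0.18 (SE 0.24, adjusted p = 0.725) for Group D vs Group M, and -0.10 (SE 0.24, adjusted p = 0.9998) for Group D vs Group C. The 95% intervals leave room for Muc2 in Group M at 0.746 to 1.495 times the level of Group C. For Group D they run from 0.608 to 1.287 times the level of Group M, and from 0.642 to 1.360 times that of Group C.

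The same 3 rats were lowest with each of the 3 Muc2 probes. With probe A_64_P113287 the signal was lowest in D12 (-1.49), C2 (-0.67) and D11 (-0.53), and with probe A_64_P200747 it was lowest in D12 (-2.26), D11 (-1.49) and C2 (-1.36). Their differences for Group M vs Group C were 0.03 and -0.16 (limma adjusted p = 0.962 and 0.704), so that the sign of so small a difference depended on the probe. Their signals were well above background on all 12 arrays. The spread of Muc2 in Group M was small, with an SD of 0.04, 0.15 and 0.13 for the 3 probes, against 0.41, 0.43 and 0.44 in Group C. This is a description of 4 rats each and was not tested. With all 12 arrays in the fit, probe A_64_P200747 gave a log2 difference of -0.71 for Group D vs Group C (unadjusted p = 0.0325, limma adjusted p = 0.700).

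**Figure D2:**
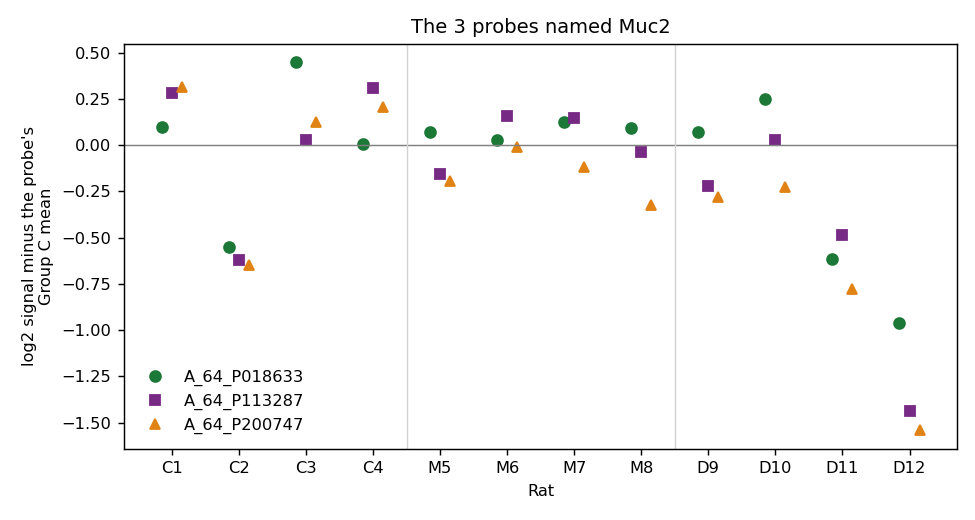
Log2 signal of each of the 3 Muc2 probes minus that probe's Group C mean (vertical axis) in every rat (horizontal axis). C2, D11 and D12 are the lowest rats with each probe and D12 is the lowest of all, while the probes differ in the order of the other rats.

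Across the 12 rats, the probes of named genes whose signals followed Muc2 most closely were Clca1 (Pearson r = 0.927), Pkm2 (0.924), Fcgbpl1 (0.917), Atp5l (0.902) and Pld1 (0.902), out of 13888 probes ranked. These are descriptions over rats that share slides and groups. Clca1, an abundant metalloprotease of goblet cell mucus, had log2 signals between 5.60 and 6.19 in Group M and between 5.21 and 6.37 in Group C. D12 was at 3.85. Its log2 difference for Group M vs Group C was 0.00 (limma adjusted p = 0.997).

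Fcgbp, a mucus protein that associates with Muc2, varied by more than Muc2 did, and no difference between groups passed the threshold. Fcgbp log2 signals were 3.42, 2.52, 4.39 and 3.38 in C1 to C4, 4.09, 3.35, 3.55 and 3.84 in M5 to M8, and 3.25, 3.97 and 2.84 in D9 to D11. D12 was at 1.87, below every other rat. The groups overlapped, and the log2 difference was 0.28 (SE 0.37, limma adjusted p = 0.709) for Group M vs Group C and -0.35 (SE 0.40, adjusted p = 0.664) for Group D vs Group M. Sequence of the Fcgbp probe is rich in cysteine codons, as shown above, and the rat array has a separate probe for the related Fcgbpl1. Signal from related transcripts cannot be told apart from that of Fcgbp.

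Zg16, a lectin-like protein that binds the cell wall of Gram-positive bacteria, had the widest range of the secreted members that were bright on all 12 arrays. Its log2 signal was 4.75, 2.68, 5.56 and 4.69 in C1 to C4. In Group M it was 3.44, 4.71, 1.46 and 2.17 in M5 to M8. It was 4.42, 5.49 and 3.90 in D9 to D11, and 1.96 in D12. The 3 lowest rats were M7, D12 and M8, C2 followed, and M6 lay with Group C. The log2 difference was -1.47 (SE 0.77, 95% interval -3.19 to 0.25, limma adjusted p = 0.287) for Group M vs Group C and 1.66 (SE 0.84, -0.20 to 3.52, adjusted p = 0.279) for Group D vs Group M. With all 12 arrays the second was 0.998 (adjusted p = 0.669). The log2 difference for Group D vs Group C was 0.18 (adjusted p = 0.9998), and -0.48 (adjusted p = 0.955) with all 12 arrays.

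Tff3, the trefoil peptide of intestinal goblet cells, differed by less than the spread between rats. The rats had log2 signals of 5.39, 5.00, 5.83 and 5.18 in C1 to C4, 4.97, 5.38, 4.69 and 5.18 in M5 to M8, 5.37, 5.65 and 4.99 in D9 to D11, and 4.52 in D12. The groups overlapped in all comparisons. The log2 difference was -0.30 (SE 0.22, limma adjusted p = 0.449) for Group M vs Group C and 0.28 (SE 0.23, adjusted p = 0.527) for Group D vs Group M.

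Spink4, a Kazal-type protease inhibitor homologue made by goblet cells, was close to background outside 3 rats of Group M. It was well above background on 2 of 4 arrays of Group C, 3 of 4 of Group M, 0 of the 3 of D9 to D11, and on that of D12. The log2 signal was -7.24, -7.33, -6.60 and -6.71 in C1 to C4. It was -4.58, -6.74, -1.61 and -4.27 in M5 to M8, so that M5, M7 and M8 lay above every rat of the other groups and M6 did not. It was -6.62, -7.00 and -7.74 in D9 to D11 and -6.58 in D12. The log2 difference for Group M vs Group C was 2.67 (SE 0.84, 95% interval 0.80 to 4.55, unadjusted p = 0.00984, limma adjusted p = 0.124), and only 2 of the 4 Group C rats gave a signal well above background. For Group D vs Group M it was -2.82 (SE 0.91, 95% interval -4.85 to -0.80, unadjusted p = 0.0111, limma adjusted p = 0.134). As Group D was not well above background on any of the 3 arrays, its level is only bounded. The mean of Group M lay 4.96-fold above that background bound. This fold leaves out the spread between rats, and the groups overlapped, with M6 (-6.74) below D9 (-6.62). No fold is given for Group D vs Group C.

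Agr2, the disulfide isomerase, had log2 signals of 4.32, 4.48, 4.51 and 4.15 in C1 to C4 and of 4.70, 4.36, 5.20 and 4.86 in M5 to M8. Those of D9 to D11 were 4.80, 4.51 and 3.85, and that of D12 was 4.13. M5, M7 and M8 were above all Group C rats and M6 was within their range. The log2 difference was 0.42 (SE 0.22, 95% interval -0.08 to 0.91, limma adjusted p = 0.298) for Group M vs Group C, -0.39 (SE 0.24, adjusted p = 0.379) for Group D vs Group M and 0.02 (SE 0.24, adjusted p = 0.9998) for Group D vs Group C. Agr2 thus had a sign opposite to that of Zg16, Muc1 and Muc13 in the first comparison, with no difference past the threshold.

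Spdef, the transcription factor of goblet cell maturation, was read by 2 probes. With the brighter one the log2 signal was 3.23, 2.60, 3.07 and 2.55 in C1 to C4, 2.57, 3.09, 3.41 and 3.14 in M5 to M8, 3.48, 3.25 and 2.85 in D9 to D11, and 3.11 in D12. The groups overlapped. The log2 difference was 0.19 (SE 0.22, limma adjusted p = 0.665) for Group M vs Group C, 0.14 (SE 0.24, adjusted p = 0.778) for Group D vs Group M and 0.33 (SE 0.24, adjusted p = 0.9504) for Group D vs Group C. The second probe gave 0.11, 0.13 and 0.24, with the same signs.

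Muc1, a transmembrane mucin with a signalling cytoplasmic tail, was lower in 3 of the 4 separated placebo rats. The log2 signal of Muc1 was -0.16, -1.08, 0.07 and -0.80 in C1 to C4. It was -2.04, -0.57, -3.05 and -2.26 in M5 to M8, and M5, M7 and M8 lay below every rat of Group C. It was -1.14, -1.04 and -0.50 in D9 to D11, and -2.41 in D12. The log2 difference for Group M vs Group C was -1.49 (SE 0.47, 95% interval -2.53 to -0.45), that is 2.81-fold lower, with an unadjusted p of 0.00945 and a limma adjusted p of 0.123. For Group D vs Group M it was 1.09 (SE 0.50, -0.03 to 2.21, limma adjusted p = 0.243), and 0.71 (adjusted p = 0.606) with all 12 arrays. For Group D vs Group C it was -0.40 (SE 0.50, adjusted p = 0.995).

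Muc13, a transmembrane mucin abundant in the large intestine, had the smallest spread of the genes with an unadjusted p of at most 0.05. Its log2 signal was 2.32, 1.88, 2.38 and 2.66 in C1 to C4, 1.58, 2.22, 1.69 and 1.81 in M5 to M8, 2.31, 2.44 and 2.47 in D9 to D11, and 1.69 in D12. The log2 difference for Group M vs Group C was -0.48 (SE 0.18, 95% interval -0.88 to -0.08, unadjusted p = 0.0227, limma adjusted p = 0.158), or 1.40-fold lower. For Group D vs Group M it was 0.58 (SE 0.19, 0.15 to 1.01, unadjusted p = 0.0135, limma adjusted p = 0.140), or 1.496-fold higher. D9 to D11 all lay above M5 to M8, the only such case among the 12 member probes in any comparison on 11 arrays, where 8.46% of all probes were higher in Group D without overlap. D12 lay among the rats of Group M, and with it the difference was 0.40 (limma adjusted p = 0.485).

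Muc4 itself could not be read by name. A probe described in the files as a fragment of the pre-sialomucin complex, a name used for rat Muc4, was found after its values were seen and is not a member. Its log2 signal was 1.21, 0.46, 1.41 and 0.99 in C1 to C4, 0.20, 0.96, -0.13 and 0.33 in M5 to M8, 1.55, 1.09 and 1.03 in D9 to D11, and 0.12 in D12. The log2 difference was -0.68 (limma adjusted p = 0.168) for Group M vs Group C and 0.88 (adjusted p = 0.132) for Group D vs Group M. A second probe with the same description gave -0.37 and 0.41 (adjusted p = 0.416 and 0.418).

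**Figure D3:**
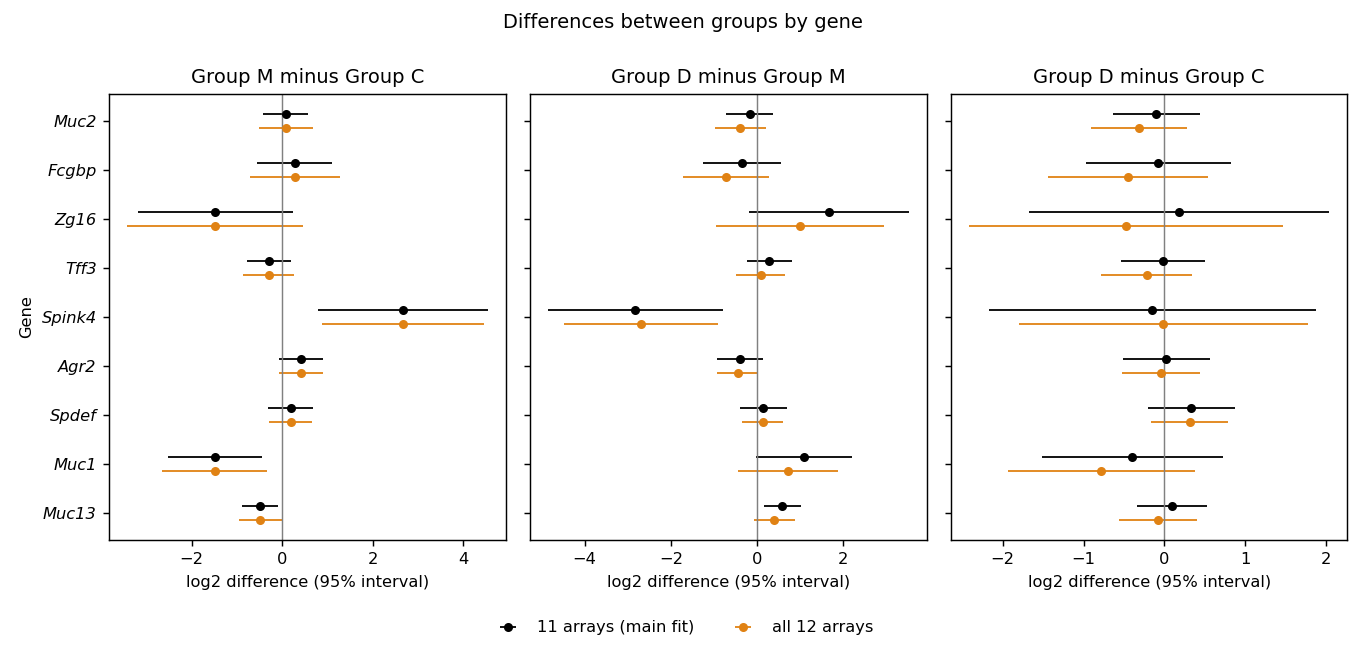
Log2 differences (horizontal axis) with 95% intervals for the 9 measured genes in the 3 comparisons, by limma on 11 arrays (black) and on all 12 (orange). Intervals of Muc1, Muc13 and Spink4 exclude 0 in Group M minus Group C, and in Group D minus Group C every interval on 11 arrays includes 0.

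The counts depended on 1 rat. Each of the 11 rats was left out in turn, and the number of member probes at a limma adjusted p of at most 0.05 ran from 0 to 3 for Group M against Group C and likewise for Group D against Group M. All calls came from the fit without M6, and each of the other 10 fits gave 0 in both. Without M6, Muc1 was lower (log2 difference -1.96, adjusted p = 0.0117), Muc13 lower (-0.62, adjusted p = 0.0380) and Spink4 higher (3.49, adjusted p = 0.0134) in Group M than in Group C, in a fit where 16.2% of all probes passed. In Group D vs Group M the same fit gave 1.56 for Muc1 (adjusted p = 0.0237), 0.71 for Muc13 (adjusted p = 0.0312) and -3.63 for Spink4 (adjusted p = 0.0145), where 14.8% of all probes passed. The labels give no ground to set M6 aside, and this fit is detailed because its values were seen to differ. The fit with all 4 rats therefore stands as the result.

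**Figure D4:**
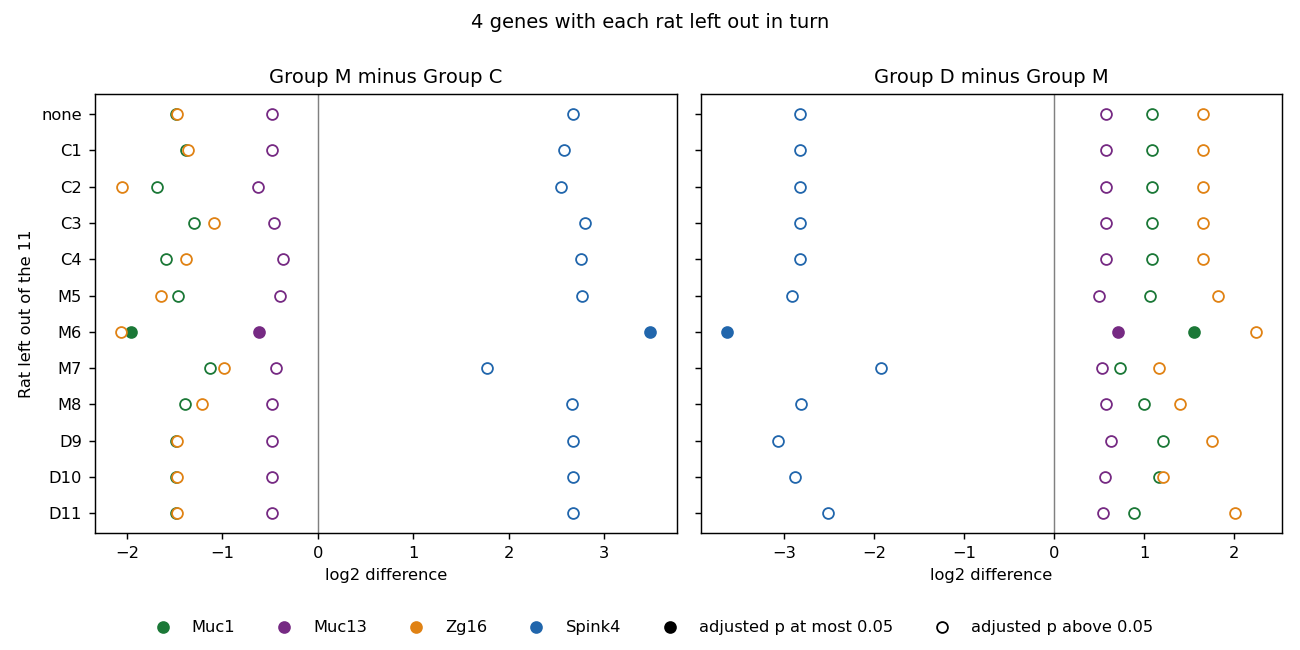
Log2 differences (horizontal axis) of Muc1, Muc13, Zg16 and Spink4 with each of the 11 rats left out in turn (vertical axis, with the fit on all 11 on top). Filled circles have a limma adjusted p of at most 0.05. The filled circles all lie in the fits without M6, and no difference crosses 0.

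Leukocyte genes moved with the same rats. The summed linear signal of 13 leukocyte markers, in multiples of the 75th percentile of the array, was 2.51, 11.2, 2.35 and 2.70 in C1 to C4, 14.8, 2.60, 13.4 and 11.5 in M5 to M8, 2.28, 3.16 and 2.77 in D9 to D11, and 22.9 in D12. It was thus high in M5, M7 and M8, and also in C2 and D12, and low in M6. Zg16 was at 3.44 or less in C2, M5, M7, M8 and D12 and at 3.90 or more in the others. Muc13 divided the rats in the same way, at 1.88 or less in these 5 and at 2.22 or more in the others. Muc1 was lowest in M7, D12, M8 and M5, while C2 (-1.08) lay among the remaining rats. Spink4 was not of this pattern, since it stayed near background in C2 and D12. Ptprc, the common leukocyte antigen, gave a log2 difference of 1.25 for Group M vs Group C (limma adjusted p = 0.348). Of the 13 markers, 3 were higher and 0 lower by an unadjusted p of at most 0.05, where 10% of all probes were higher and 12.6% lower. The neutrophil gene S100a8 gave 2.10 (adjusted p = 0.190) and the mast cell protease Cpa3 gave 1.12 (adjusted p = 0.0932). In Group D vs Group M, 0 of the 13 were higher and 6 lower by unadjusted p, against 11.3% and 10.3% of all probes. With all 12 arrays these counts were 0 and 0, against 5.86% and 6.34%. The part of lymphoid tissue in the members' differences was not tested.

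The summed signal of 7 genes best known from the small intestine, most of them of absorptive cells, divided the rats in the same way with the opposite sign. This linear sum was 10.3, 3.77, 11.6 and 12.4 in C1 to C4, 4.53, 9.48, 2.66 and 3.45 in M5 to M8, 7.64, 16.5 and 8.44 in D9 to D11, and 2.78 in D12. It was thus low in C2, M5, M7, M8 and D12. Apoa1, Fabp2 and Mep1a each divided the rats in this way, but the other genes did not. Fabp6, near background, went the other way, at -5.30, -4.46, -4.86, -5.11 and -4.33 in those rats and at -6.53 or less in the rest. Apoa4 was higher in M5 (-2.38) than in any rat of Group C, and Lct and Anpep did not follow the division. By unadjusted p, 0 of the 7 were higher or lower in Group M vs Group C, against 10% and 12.6% of all probes. In Group D vs Group M, 3 were higher and 1 lower, against 11.3% and 10.3%. The part of these genes in the members' differences was not tested.

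Epithelial content, as read by its markers, was less uneven. The summed signal of 11 epithelial markers lay between 326 and 389 in Group C, between 330 and 501 in Group M and between 297 and 397 in Group D with D12. Epcam gave a log2 difference of 0.24 (limma adjusted p = 0.340) and Vil1 of -0.34 (adjusted p = 0.472) for Group M vs Group C. By unadjusted p, 2 of the 11 were higher and 0 lower, against 10% and 12.6% of all probes. The higher ones were the keratins Krt18, at 0.69 (adjusted p = 0.189), and Krt19, at 0.49 (unadjusted p = 0.00483, limma adjusted p = 0.110). Krt19 did not overlap between Groups M and C, where 9.23% of all probes did not. Among 11 colonocyte genes the sum ran from 94.6 to 182 in Group C, from 119 to 163 in Group M and from 93.7 to 209 in Group D, with the lowest values in C2 and D12. Car1, a carbonic anhydrase of surface colonocytes, gave -1.61 (adjusted p = 0.106) for Group M vs Group C and 1.77 (adjusted p = 0.101) for Group D vs Group M. Aqp8, a water channel of the same cells, gave -1.36 and 2.09 (adjusted p = 0.222 and 0.130). Other colonocyte genes went the other way. The list held 2 higher and 3 lower by unadjusted p in Group M vs Group C, against 10% and 12.6% of all probes. In Group D vs Group M it held 7 higher and 1 lower, against 11.3% and 10.3%. With all 12 arrays these last counts were 3 and 1, against 5.86% and 6.34%. Guca2b, the peptide uroguanylin, gave 1.01 and -1.28 (adjusted p = 0.148 and 0.124), and the keratin Krt20 gave 0.56 and 0.13 (adjusted p = 0.197 and 0.807). Since Muc1 and Muc13 are made by absorptive cells as well, these values stand beside theirs, and their part in the result was not tested. Of the genes of other layers and cells that were bright on every array, with an unadjusted p not above 0.05, the largest differences for Group M vs Group C were those of Myocd (1.01) and Des (0.51) of smooth muscle, Sox10 (0.77) and Tubb3 (0.57) of enteric glia and neurons, Scg3 (0.30) of enteroendocrine cells and Emcn (-0.40) of endothelium, with limma adjusted p between 0.0895 and 0.196.

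The other genes of the goblet cell programme were read from lists, each by its brightest probe, and 0 of them had an adjusted p of at most 0.05 in any comparison. With the unadjusted p at or under 0.05, which the counts by unadjusted p use, the shares over all probes were 10% higher and 12.6% lower in Group M vs Group C, and 11.3% higher and 10.3% lower in Group D vs Group M. Of 12 other mucins 6 had a probe, and 3 of these, Muc5ac, Muc5b and Muc16, were not well above background on any array. By unadjusted p, 1 of the 6 was higher and 1 lower in Group M vs Group C, neither of them well above background on all arrays. Muc3a was the one well above background on all 12, with log2 differences of 0.13 for Group M vs Group C and 0.35 for Group D vs Group M (limma adjusted p = 0.748 and 0.374).

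Of 14 other goblet cell products with a probe, 1 was higher and 3 lower in Group M than in Group C by unadjusted p, and the median log2 difference was -0.24. Tff1, a trefoil peptide best known from gastric surface mucus, had log2 signals of -5.89, -2.51, -5.48 and -5.33 in C1 to C4, -1.32, -4.08, 0.93 and -1.01 in M5 to M8, -5.18, -5.11 and -4.83 in D9 to D11, and -1.44 in D12. It was thus high in M5, M7, M8 and D12, with C2 and M6 between these and the rest. Its difference was 3.43 (SE 0.997, unadjusted p = 0.00616, limma adjusted p = 0.113) for Group M vs Group C. For Group D vs Group M it was -3.67 (adjusted p = 0.115), and -2.77 with all 12 arrays. Fer1l6 gave -1.07 for Group M vs Group C (adjusted p = 0.123). Tff2 was not well above background on any of the 12 arrays. Retnlb, a goblet cell protein with antimicrobial activity, varied widely between rats, from -0.86 in M6 to 4.88 in M5, and gave 1.43 (adjusted p = 0.557).

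Of 21 genes of mucin glycosylation with a probe, 3 were higher and 5 lower in Group M than in Group C by unadjusted p, and 6 higher and 1 lower in Group D than in Group M. With all 12 arrays the last counts were 1 and 1, where 5.86% of all probes were higher and 6.34% lower. St6galnac1, which adds sialic acid to O-glycans, gave log2 differences of -0.92 and 0.88 (limma adjusted p = 0.161 and 0.211). Gcnt3, which makes branched O-glycan cores, gave 1.01 and -0.92 (adjusted p = 0.160 and 0.227). The median over the list was -0.20 for Group M vs Group C and 0.23 for Group D vs Group M.

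Of 18 genes of folding and secretion, 6 were higher and 2 lower in Group M than in Group C by unadjusted p. Hspa5, the main chaperone of the endoplasmic reticulum, was at 3.26, 3.93, 3.30 and 2.44 in C1 to C4 and at 4.07, 3.96, 5.40 and 4.80 in M5 to M8, so that these groups did not overlap. Its log2 difference was 1.32 (SE 0.49, limma adjusted p = 0.156). Tgm3, a transglutaminase that crosslinks proteins of the mucus, was at 3.77, 2.58, 2.42 and 4.07 in C1 to C4 and at 0.76, 2.05, -0.66 and 1.21 in M5 to M8, again without overlap, M6 included. It was at 2.89, 3.44 and 2.71 in D9 to D11 and at 1.12 in D12. Its log2 difference was -2.37 (SE 0.56, unadjusted p = 0.00165, limma adjusted p = 0.0966) for Group M vs Group C and 2.17 (adjusted p = 0.107) for Group D vs Group M. Of all probes, 9.23% did not overlap between Groups M and C.

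Of 13 genes that control the secretory lineage, 2 were higher and 2 lower in Group M than in Group C by unadjusted p, and 4 higher and 0 lower in Group D than in Group M, or 0 and 0 with all 12 arrays. Creb3l1 and Creb3l4, membrane-bound transcription factors of secretory cells, gave log2 differences of 0.76 and -0.83 for Group M vs Group C (limma adjusted p = 0.118 and 0.112). Of 17 signals that act on goblet cells, 3 were higher and 4 lower in the same comparison. Nlrp6, an inflammasome receptor linked to mucus release, was at -0.16, -0.93, 0.02 and -0.05 in C1 to C4, -1.60, -0.51, -3.69 and -1.997 in M5 to M8, 0.09, 0.30 and 0.28 in D9 to D11, and -2.76 in D12. Its log2 difference was -1.67 (adjusted p = 0.129) for Group M vs Group C and 2.18 (adjusted p = 0.101) for Group D vs Group M. The cytokine Il1b gave 1.26 (adjusted p = 0.206).

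**Figure D5:**
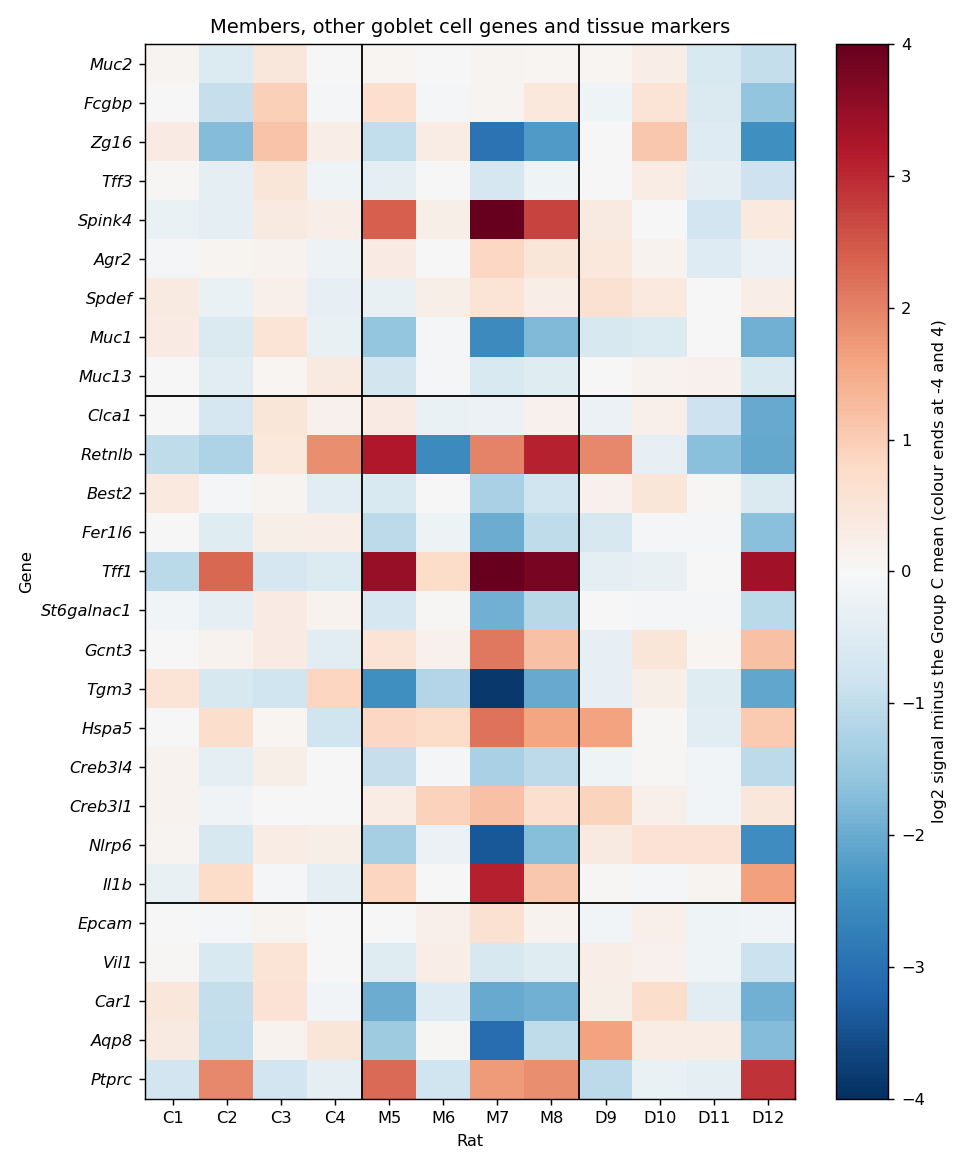
Log2 signal minus the Group C mean (colour, ending at -4 and 4) of the members (top block), other goblet cell genes (middle) and tissue markers (bottom) in every rat. M5, M7 and M8 share low Zg16, Muc1, Nlrp6 and Car1 and high Spink4, Tff1 and Ptprc, and M6 lies near Group C for these. D12 shares all of them but the high Spink4. C2 shares the low Zg16 and the high Ptprc but not the high Spink4.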

How the data were processed

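Colon RNA of 12 rats was hybridized to 1 one-colour (Cy3) array each, and the deposited intensity of each spot had been background-subtracted and detrended by the authors' scanner software, not normalized between arrays. The deposited matrix of the authors holds log2 values and was an alternative, and the deposited flag columns (outlier, well above background) are no measurement. Array designs, gene names and rn4 positions are those of the files.

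From the intensity, log2 minus the log2 of the array's 75th percentile (1434 to 1953 units) was taken, outlier spots were left out and spots of a probe averaged. A gene is represented by its probe with the highest mean signal. A probe was well above background on an array where no fewer of its spots were marked so than not, as 20315 probes were on all 12 arrays and 5933 on none. No probe is compared with another in level. The number of arrays limits the precision.

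The 3 groups were fitted in one model with limma 3.58.1 (lmFit, eBayes) under R 4.3.3 on 11 arrays, two-sided, with Benjamini-Hochberg adjustment over 30367 probes, a threshold of 0.05 and 95% intervals. If the rats are not independent, p-values measure only the spread between these samples. Where no array of a group was well above background, its fold is a bound, the mean of the brighter group against, per array, the higher of the lowest signal well above background and the probe's own. Named were all member probes, the 7 tissue markers Epcam, Cdh1, Vil1, Car1, Aqp8, Myh11 and Ptprc, the 5 probes most like Muc2 (Clca1, Pkm2, Fcgbpl1, Atp5l and Pld1), and from each list the 2 genes with the largest difference between Groups M and C, with an unadjusted p not above 0.05, and well above background on every array. Genes named beside these were chosen after their values were seen, or show an absence. They are Krt20, Muc3a, Muc5ac, Muc5b, Muc16, Retnlb, Tff2 and the sialomucin probes. The small intestine genes Apoa1, Fabp2, Mep1a, Fabp6, Apoa4, Lct and Anpep were also named after their values were seen. Members and lists were chosen with earlier results of these data known. The alternatives were all 12 arrays, a normexp correction with an offset of 50, quantile normalization, a shift to the array median, the authors' matrix, outlier spots kept, bright probes alone, the replicate number as a block, array quality weights, a model of the compared groups alone, the methods' tests, the mean of a gene's probes, and each rat left out, with all 12 arrays without M6 added after seeing the data. Steps were tested on simulated data. Figures were drawn with Python and matplotlib.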

Additional observations from a re-analysis of the deposited data

How the results depend on the processing

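The count of 0 members under the adjusted threshold of 0.05 held in all 3 comparisons under all 12 arrays, the normexp correction, quantile normalization, the shift to the array median, the authors' matrix, outlier spots kept, bright probes alone, the replicate block, a model of the compared groups alone and the methods' tests. With array quality weights, which weight each rat by how far it lies from its group, 4 passed for Group M against Group C and 4 for Group D against Group M (Zg16, Spink4, Muc1 and Muc13 in each), and 5, 5 and 1 at an unadjusted p in the 3 comparisons. At an unadjusted p, all 12 arrays gave 1 in Group D vs Group M and 1 in Group D vs Group C, and bright probes alone gave 1 in Group D vs Group M. All 12 arrays without M6 gave 1 at the adjusted p in Group M vs Group C, and 5, 4 and 1 at an unadjusted p. The cause of these shifts was not tested. For the quality weights and for all 12 arrays without M6, no share over all probes was counted. Their member counts can therefore not be set against the whole array. On 10 arrays without M6, 16.2% of all probes passed for Group M against Group C and 14.8% for Group D against Group M.

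With each rat left out, the members at an adjusted p ranged from 0 to 3 in Group M vs Group C, from 0 to 3 in Group D vs Group M and were 0 in Group D vs Group C, and at an unadjusted p from 2 to 5, from 2 to 4 and from 0 to 2. The median over the members ranged from -0.11 to 0.23, from -0.02 to 0.32 and from -0.27 to 0.16. Signs turned for small differences. In Group D vs Group C, all 12 arrays gave -0.48 for Zg16, -0.039 for Agr2 and -0.081 for Muc13, the normexp correction gave 0.023 for Tff3 and 0.0073 for Spink4, and the shift to the median gave 0.028 for Tff3. The mean of the 3 Muc2 probes gave -0.018 in Group M vs Group C. With each rat left out, ranges that crossed 0 were, in Group M vs Group C, -0.11 to 0.23 for Muc2 and -0.024 to 0.60 for Fcgbp, and in Group D vs Group M, -0.35 to 0.081 for Muc2 and -0.017 to 0.32 for Spdef. In Group D vs Group C they were -0.28 to 0.16 for Muc2, -0.38 to 0.25 for Fcgbp, -0.40 to 0.56 for Zg16, -0.17 to 0.16 for Tff3, -0.40 to 0.16 for Spink4, -0.18 to 0.29 for Agr2 and -0.045 to 0.21 for Muc13. Muc1 and the other comparisons of these genes kept their sign in each of these fits.

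Rats of different groups share only a number in their titles. Correlations of the deviations of same-numbered rats ran from -0.56 to 0.38, which cannot show whether these rats were matched. The labels do not say that they were, and the main fit treats them as unpaired. The replicate block gave 0, 0 and 0 members at an adjusted p and 3, 2 and 0 at an unadjusted p, and changed no call. Spink4 near background has only a bound in Group D. The 36 sets of 4 rats examined for an outlying member value held none by Dixon's criterion.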
